A study of Mus musculus with 21 samples.

Results

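The Hox genes of mouse gastrocnemius muscle are described here across 3 treadmill training groups. A transcript was included when its symbol began with Hoxa, Hoxb, Hoxc or Hoxd and its counts summed to at least 21 over the 21 libraries. Of the 40853 genes in the count table, 45 carried such a symbol and 37 met the summed count. The 37 comprised 31 coding Hox genes and 6 antisense or opposite-strand transcripts (Hoxa11os, Hoxaas2, Hoxaas3, Hoxb3os, Hoxb5os and Hoxd3os1). The 8 that fell short were Hoxb1, Hoxb13, Hoxc12, Hoxc13, Hoxd1, Hoxd11, Hoxd12 and Hoxd13, with summed counts between 0 and 10.

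All mice were female C57BL/6NJ animals, 10 weeks old at the start, and RNA came from the medial belly of the gastrocnemius, a calf muscle made up mostly of fast fibers. The Inactive group was never trained. The Active group, called trained in the sample labels, ran on a treadmill for 6 weeks on 5 days per week, in sessions of up to 40 min that opened with a warm-up and went on at about 70% of maximal speed. The Activity Reduction group ran for 4 weeks and was then kept inactive for 2 weeks. Each group held 7 mice, with 1 library per mouse, and every mouse, Inactive mice included, completed a maximal running test 48 to 72 h before collection and was fasted for some hours. Libraries held between 38482455 and 59785132 counts.

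Hox genes encode homeodomain transcription factors that give cells their position along the body axis. In mammals they lie in 4 clusters, Hoxa to Hoxd, and are numbered so that low paralog numbers act toward the head and high numbers toward the tail and the far end of the limb. In the limb bud, Hoxa11 and Hoxd11 pattern the middle segment and Hoxa13 and Hoxd13 the hand and foot, and adult muscle and its connective tissue keep part of the Hox pattern of their origin. Hoxa11os is a long noncoding RNA read from the strand opposite Hoxa11.

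The sequences at the starts of 3 loci are shown because Hoxa11, Hoxa11os and Hoxa13 were high in mostly the same libraries. Hoxd8 was lowest in the one Active library in which those transcripts were highest. Regulation through these sequences was not tested. They were read 5′ to 3′ from GRCm39, with capitals marking GGGCGG (the GC box) or CCAAT, or their reverse complements. The first is the interval between the Hoxa11 start and the first Hoxa11os start beyond it, chr6:52222807-52222948 on the minus strand. The second is the 250 bases before Hoxa13, chr6:52237823-52238072 on the minus strand. The third is the 250 bases before Hoxd8, chr2:74534709-74534958 on the plus strand, which also holds exon sequence of Hoxd3os1.
Hoxa11 to Hoxa11os interval: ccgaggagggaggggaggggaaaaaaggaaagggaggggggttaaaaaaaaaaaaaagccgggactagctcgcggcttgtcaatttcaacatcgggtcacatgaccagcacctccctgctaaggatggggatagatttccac
Hoxa13 upstream: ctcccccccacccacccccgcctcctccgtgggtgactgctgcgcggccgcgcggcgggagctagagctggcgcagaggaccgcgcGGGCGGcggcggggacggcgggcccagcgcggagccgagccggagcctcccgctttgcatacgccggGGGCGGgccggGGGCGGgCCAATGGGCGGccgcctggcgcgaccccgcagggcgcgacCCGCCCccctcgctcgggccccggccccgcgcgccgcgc
Hoxd8 upstream: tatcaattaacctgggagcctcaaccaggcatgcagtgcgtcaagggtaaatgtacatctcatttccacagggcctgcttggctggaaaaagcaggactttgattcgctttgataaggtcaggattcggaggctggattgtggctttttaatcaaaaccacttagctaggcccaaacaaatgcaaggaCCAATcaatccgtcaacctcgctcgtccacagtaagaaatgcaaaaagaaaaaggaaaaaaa

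The Hoxa13 window was 84.4% G and C with 43 CpG dinucleotides, 5 GC boxes and 1 CCAAT. The Hoxd8 window was 44.4% G and C with 6 CpG dinucleotides and 1 CCAAT. The Hoxa11 to Hoxa11os interval was 52.1% G and C over 142 bases with 5 CpG dinucleotides and neither motif. GGGCGG was present in 26.9% and CCAAT in 34.8% of 2931 windows of 250 bases taken before the protein-coding genes of chromosomes 2 and 6. TATAAA (the TATA box) was in none of these sequences on either strand and in 14.6% of those windows. The same held for TTTATG (a core of posterior HOX binding sites), in 12.1% of windows, and for TGACAG (the MEIS core), in 13.7%. Hoxa11os has 15 annotated transcripts, of which 6 start within 50 bases of the start used here, so the interval lies between both genes only for part of them.

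The levels were compared first across the clusters, as normalized counts, which are counts divided by the library's size factor. Summed over members, the Hoxc cluster on chromosome 15 reached 4775 ± 300.0 normalized counts (SD, n = 21 libraries) and the Hoxd cluster on chromosome 2 reached 3724 ± 340 (SD). The Hoxa cluster on chromosome 6 reached 1904 ± 151 and the Hoxb cluster on chromosome 11 reached 293 ± 31.3 (SD, n = 21 for both). These were 44.6%, 34.8%, 17.8% and 2.74% of the Hox total. The lowest library total of each cluster was above the highest of the next, in the order Hoxc, Hoxd, Hoxa and Hoxb. Hoxc and Hoxd came closest, with a lowest Hoxc total of 4354 and a highest Hoxd total of 4280.

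Levels between genes were compared per kb of annotated exon, averaged over the 21 libraries. Hoxc10, a posterior gene known for its expression in hindlimb tissues, stood first at 1810 ± 143 normalized counts per kb (SD). Hoxd8 followed at 728 ± 77.1 and Hoxd9 at 513 ± 53.9 (SD). Hoxd10 was at 152 ± 17.5 and Hoxa7 at 120 ± 13.8 (SD), and Hoxa7, Hoxc4 at 119.6 ± 13.0, Hoxc9 at 104 ± 11.2 and Hoxa6 at 103 ± 20.5 were neighbours whose differences lay within or near their spread. The remaining 29 transcripts were below 100 per kb.

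The paralog numbers did not give one gradient in every cluster. In Hoxa, the level per kb was 15.4 for Hoxa2, 24.3 for Hoxa3, 62.5 for Hoxa4, 49.99 for Hoxa5, 103 for Hoxa6 and 120 for Hoxa7, and then 91.4 for Hoxa9, 74.3 for Hoxa10, 48.6 for Hoxa11 and 27.5 for Hoxa13. Hoxa therefore had its highest level at the centre of the cluster. In Hoxb, the highest values were 23.9 for Hoxb7 and 23.4 for Hoxb6, a difference within their spread, and the lowest coding value was 3.595 for Hoxb2. In Hoxc, Hoxc10 was flanked by Hoxc11 at 80.6 and Hoxc9 at 104, and the lowest was Hoxc8 at 20.2. In Hoxd, Hoxd8 to Hoxd10 were high, Hoxd4 was at 42.5 and Hoxd3 at 6.02, while Hoxd11, Hoxd12 and Hoxd13 did not reach the summed count. Where the paralog group 10 was measured, Hoxc10 exceeded Hoxd10 and Hoxa10 in each library group.

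**Figure D1:**
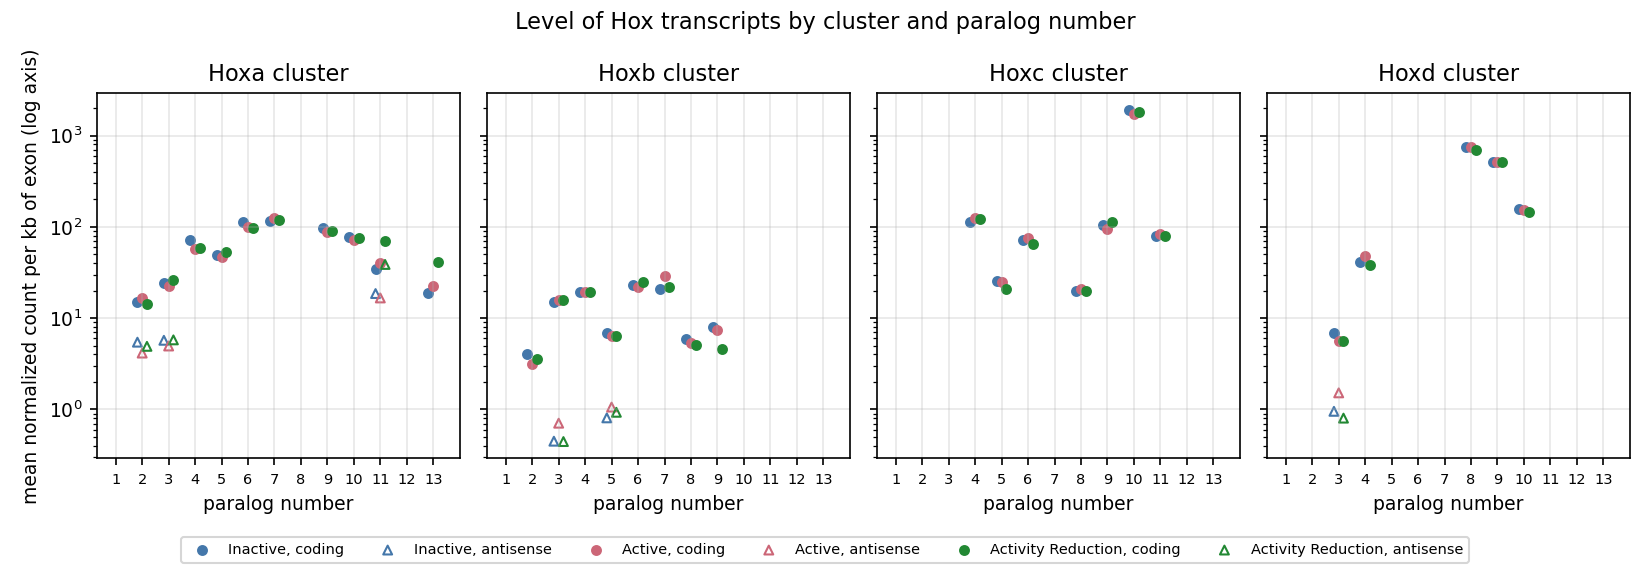
Mean normalized count per kb of exon (log axis) against paralog number in the 4 clusters, with 1 point per group mean of 7 libraries, filled circles for coding genes, open triangles for antisense transcripts and colors for the training groups. The groups overlie each other for most transcripts, Hoxc10 is highest at 1810 per kb over all libraries, and the Activity Reduction points of Hoxa11, Hoxa11os and Hoxa13 lie above the other groups.

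The antisense transcripts were lower than most coding members. Hoxa11os was at 24.7 ± 14.3 per kb (SD, n = 21), Hoxaas3 at 5.49 and Hoxaas2 at 4.84, and Hoxd3os1, Hoxb5os and Hoxb3os were at 1.09, 0.934 and 0.534. Of the 37 members, 33 passed the filter on low counts and were tested, and Hoxb3os, Hoxb5os and Hoxd3os1 were among those that did not. Their normalized counts per library ranged from 0 to 9.27 for Hoxb3os, 0.936 to 11.7 for Hoxb5os and 0 to 11.3 for Hoxd3os1. Several members share exon bases with a neighbour, and the strand setting used in counting is not given in the sources used here, so reads over those bases cannot be assigned to one strand. The shared part was 43.6% of Hoxa11 exon bases, 46.5% of Hoxa11os, 51.5% of Hoxb3, 52.0% of Hoxd4, 38.5% of Hoxd3 and 30.8% of Hoxb6. With all counts divided by the kb of exon no other gene covers, Hoxc10, Hoxd8, Hoxd9 and Hoxd10 kept the first 4 places. Hoxb6 at 33.8 then stood above Hoxb7 at 23.9. On that scale Hoxa11 moved from 48.6 to 86.2 and Hoxa11os from 24.7 to 46.1 normalized counts per kb. These values are too high for genes with shared bases if reads over those bases were counted.

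The members also differed in their spread between libraries. Hoxc10 differed 1.32-fold between its lowest and highest library, Hoxa9 1.42-fold, Hoxa10 and Hoxc9 1.45-fold and 1.46-fold, and Hoxd8 1.48-fold. Among members above 50 normalized counts on average, Hoxa11 at 5.83-fold, Hoxa11os at 6.70-fold and Hoxa13 at 6.24-fold ranged the most. Low members such as Hoxb8 at 15.0-fold also ranged widely, at a mean of 14.5 normalized counts.

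The training groups were then compared by edgeR's quasi-likelihood test on the 16129 genes that passed the filter, 33 members among them. A transcript was called at a Benjamini-Hochberg adjusted p under 0.05 with a log2 fold change over 0.25 in either direction. By edgeR, 0 of the 33 members were called in any comparison. The background was 0% of all genes tested for Active against Inactive, 0.0124% for Activity Reduction against Inactive and 0% for Activity Reduction against Active. At an unadjusted p under 0.05 stood 3 members (9.09%) for Active against Inactive, against 10.9% of all genes tested. For Activity Reduction against Inactive there were 4 members (12.1%) against 7.73%, and for Activity Reduction against Active 5 members (15.2%) against 13.3%. These shares were near the background for Active against Inactive and for Activity Reduction against Active. For Activity Reduction against Inactive the share rested on 4 members, too few to describe the set. Among these, Hoxa11 and Hoxa11os share 1010 exon bases. The 3 comparisons share groups of mice and are not independent of each other. In bulk muscle, fewer cells of a type and less RNA per cell cannot be told apart.

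DESeq2 fitted on the 2 groups compared called 3 members for Activity Reduction against Inactive, Hoxa11 (adjusted p = 0.0242), Hoxa11os (adjusted p = 0.00318) and Hoxa13 (adjusted p = 0.00135), against 0.159% of all genes. In the same fits it called Hoxa11os for Activity Reduction against Active (adjusted p = 0.0119), against 0.478% of all genes, and 0 members for Active against Inactive, against 0.271%. Fitted on the 3 groups together, DESeq2 called Hoxa11os for Activity Reduction against Active (adjusted p = 0.00436), against 0.408% of all genes, and 0 members for Active against Inactive (0.199% of all genes) and for Activity Reduction against Inactive (0.0802%). In that fit, 28 of 37 members, these 3 included, received no adjusted p for Activity Reduction against Inactive.

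**Figure D2:**
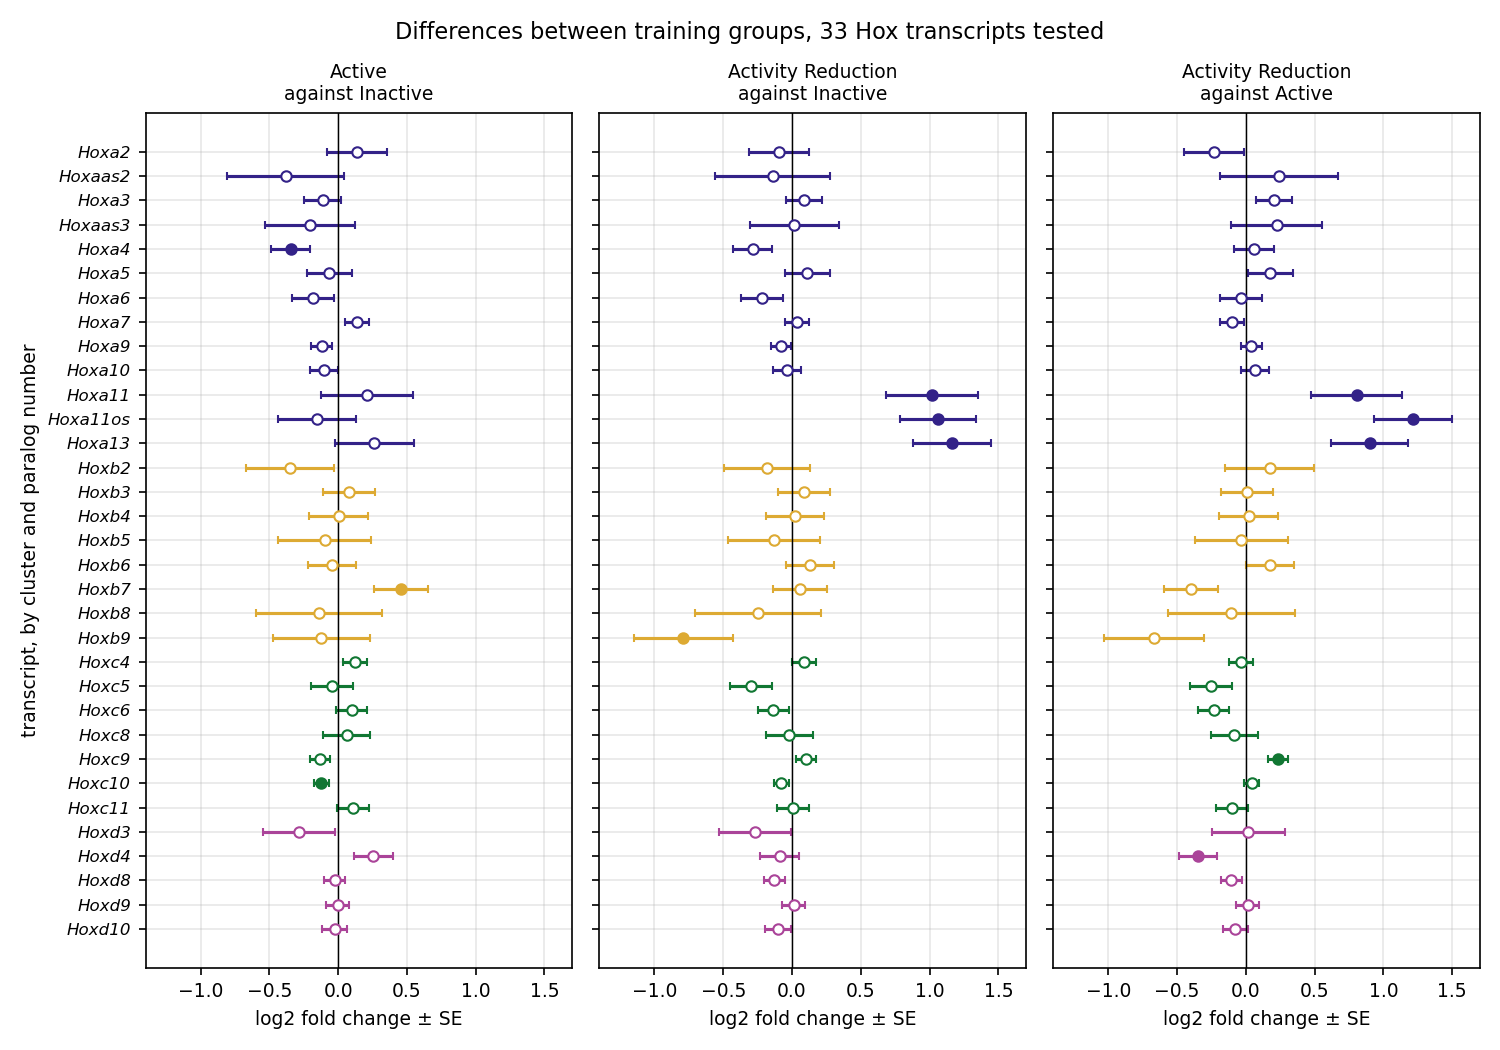
Log2 fold change with its standard error for the 33 Hox transcripts tested, in the 3 comparisons (edgeR, 7 libraries per group). Filled points have an unadjusted p under 0.05, colors mark the 4 clusters, and Hoxa11, Hoxa11os and Hoxa13 lie near 1 in Activity Reduction against Inactive, while the other 30 range from -0.79 to 0.13.

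At the posterior end of the Hoxa cluster, Hoxa11, Hoxa11os and Hoxa13 were higher in most Activity Reduction libraries than in the other groups, about 2-fold on average, and did not pass the adjusted threshold of edgeR. Hoxa11 (chr6:52219074-52222806, minus strand) encodes a transcription factor of the middle limb segment. Its normalized counts were 57.1, 74.0 and 118 (lowest, median and highest of 7) in Inactive mice, 39.4, 74.7 and 230 in Active mice and 56.5, 192 and 224 in Activity Reduction mice. The groups overlapped, with 5 of 7 Activity Reduction libraries and 1 of 7 Active libraries above every Inactive library. The log2 fold change was 1.02 ± 0.33 (SE) for Activity Reduction against Inactive (edgeR adjusted p = 0.445). It was 0.81 ± 0.33 for Activity Reduction against Active (edgeR adjusted p = 0.303) and 0.21 ± 0.33 for Active against Inactive (edgeR adjusted p = 0.861).

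Hoxa11os (chr6:52220356-52226784, plus strand) gave 60.5, 71.2 and 82.4 normalized counts (lowest, median and highest) in Inactive mice, 33.3, 55.6 and 142 in Active mice and 69.4, 151 and 223 in Activity Reduction mice. The same count of libraries as for Hoxa11, 5 of 7 Activity Reduction and 1 of 7 Active, lay above every Inactive library. The log2 fold change was 1.06 ± 0.28 (SE) for Activity Reduction against Inactive (edgeR adjusted p = 0.32). For Activity Reduction against Active it was 1.21 ± 0.28 (edgeR adjusted p = 0.105), the smallest adjusted p of any member in the 3 comparisons. Without Active replicate 3, the highest of its group, that difference was 1.55 ± 0.24 and was called (edgeR adjusted p = 0.0167). In that fit 8 of 16129 genes were called, and leaving out the highest reference library raises the difference by itself. For Active against Inactive the log2 fold change was -0.15 ± 0.28 (edgeR adjusted p = 0.888). It was between -0.49 (without Active replicate 3) and -0.045 (without Active replicate 1) when 1 library was left out.

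Hoxa13 (chr6:52234602-52237822, minus strand), which patterns the hand and foot and whose exons share no base with another annotated gene, was high in most of the same libraries. Its 5 highest libraries were among the 6 highest for Hoxa11 and Hoxa11os, while the remaining one of these, Activity Reduction replicate 3, was at 67.5, below Activity Reduction replicate 5 at 77.0. It gave 35.6, 48.3 and 57.1 normalized counts (lowest, median and highest) in Inactive mice, 24.9, 54.0 and 123 in Active mice and 50.6, 122 and 155 in Activity Reduction mice. Above every Inactive library lay 6 of 7 Activity Reduction libraries and 1 of 7 Active libraries. The log2 fold change was 1.16 ± 0.28 (SE) for Activity Reduction against Inactive (edgeR adjusted p = 0.226). It was 0.90 ± 0.28 for Activity Reduction against Active (edgeR adjusted p = 0.176) and 0.26 ± 0.29 for Active against Inactive (edgeR adjusted p = 0.777).

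Hoxa10, the neighbour of Hoxa11 toward the anterior end of the cluster, spanned like ranges in the 3 groups. Its normalized counts were 200.2 to 285 in Inactive mice, 197 to 285.0 in Active mice and 216 to 286 in Activity Reduction mice. The log2 fold change for Activity Reduction against Inactive was -0.04 ± 0.10 (SE, edgeR adjusted p = 0.979).

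**Figure D3:**
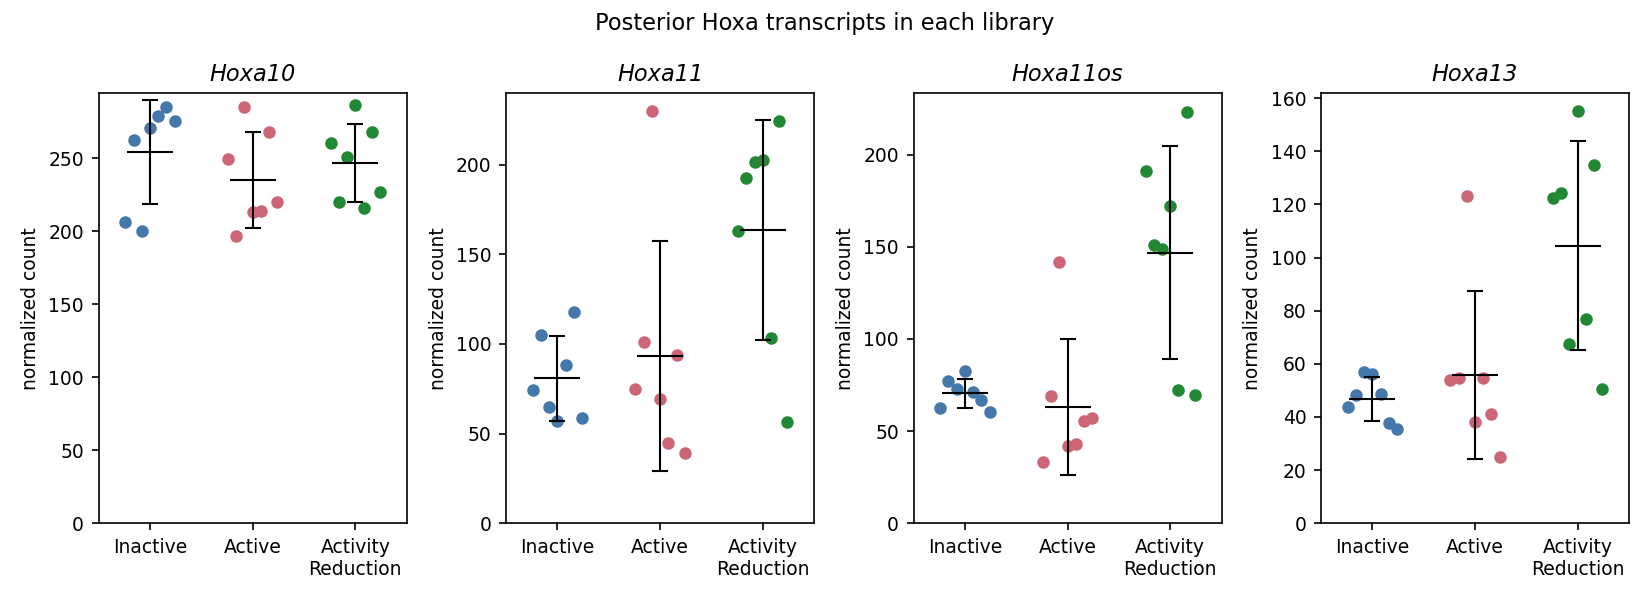
Normalized counts of Hoxa10, Hoxa11, Hoxa11os and Hoxa13 in each library by training group, with points for libraries and bars for the mean ± SD of 7. In Hoxa11, Hoxa11os and Hoxa13, Active replicate 3 stands apart from its group at 230, 142 and 123, and Hoxa10 spans the same range in all groups.

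The libraries fell into separate sets by Hoxa11os, with 15 between 33.3 and 82.4 and 6 between 142 and 223 normalized counts. The 6 were Active replicate 3 and Activity Reduction replicates 1, 2, 3, 4 and 6. Because of this gap, correlations with Hoxa11os were computed within each set rather than over all libraries. Within the 15 libraries, Hoxa11os against Hoxa11 gave r = 0.271 (permutation p = 0.328) and rho = 0.221 (permutation p = 0.425), and against Hoxa13 r = 0.194 (permutation p = 0.478) and rho = 0.461 (permutation p = 0.0856). Without the 2 libraries farthest from the median, r was 0.439 for Hoxa11 and 0.348 for Hoxa13. Within the 6 libraries, r was -0.132 for Hoxa11 (exact permutation p = 0.772) and 0.415 for Hoxa13 (exact permutation p = 0.418), with rho of -0.371 (exact permutation p = 0.497) and 0.429 (exact permutation p = 0.419). There, r without the 2 farthest libraries was -0.520 for Hoxa11 and 0.496 for Hoxa13. None of the 32 members compared with Hoxa11os passed in either set, with smallest adjusted permutation p of 0.317 and 0.844. The sets were split on Hoxa11os itself, which narrows its range within each. These r therefore cannot show whether the members vary together over all libraries. Hoxa11 was between 163 and 230 in the 6 libraries and between 39.4 and 118 in the 15. Hoxa13 was between 67.5 and 155 in the 6 and between 24.9 and 77.0 in the 15.

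The balance of the antisense and the sense transcript was tested directly. The mean log2 ratio of Hoxa11os to Hoxa11 counts, each with 0.5 added, was -0.15 ± 0.44 in Inactive mice, -0.49 ± 0.55 in Active mice and -0.14 ± 0.32 in Activity Reduction mice (SD, n = 7). The difference was 0.01 for Activity Reduction against Inactive (two-sided exact permutation p = 0.966, adjusted p = 0.966). It was 0.34 for Activity Reduction against Active (exact permutation p = 0.181, adjusted p = 0.350) and -0.33 for Active against Inactive (exact permutation p = 0.233, adjusted p = 0.350). How reads over the 1010 exon bases shared by both genes entered these counts depends on counting settings not given in the sources used here. Such a read could be given to the gene of its strand, to both genes or to neither.

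Transcripts of slow fibers were low in most, not all, of the libraries with more Hoxa11os. The summed CPM of 6 slow fiber transcripts (Myh7, Tnnt1, Tnni1, Tnnc1, Myl3 and Myl2) ranged from 1303 to 1695 in Inactive mice, 701 to 1617 in Active mice and 426 to 1403 in Activity Reduction mice. The sum was lowest in Activity Reduction replicates 4 at 426 and 1 at 594, Active replicate 3 at 701 and Activity Reduction replicate 2 at 886, all among the 6 libraries with more Hoxa11os. Activity Reduction replicate 6 was at 1079. Activity Reduction replicate 3 did not follow, with a slow fiber sum of 1358, Hoxa11os at 149, Hoxa11 at 202 and Hoxa13 at 67.5. Active replicate 5 differed in the other direction, with a slow fiber sum of 1188, below every Inactive library, and Hoxa11os at 42.9, Hoxa11 at 44.9 and Hoxa13 at 54.6. In Activity Reduction against Inactive, 3 of the 6 slow fiber transcripts were lower at an unadjusted p under 0.05, a level reached by 7.73% of all genes. These were Myh7 with a log2 fold change of -0.74, Tnnc1 with -0.65 and Tnnt1 with -0.59 (edgeR adjusted p = 0.506, 0.603 and 0.552). In each other comparison 0 of the 6 were at that level. The list medians there were -0.39 for Activity Reduction against Active and -0.18 for Active against Inactive. All 6 were detected in the tissue, and the summed CPM of 6 fast fiber transcripts overlapped between groups, from 113367 to 140939.

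With the mean log2 CPM of the slow fiber list as a covariate, chosen after seeing the data, the Activity Reduction against Inactive log2 fold change was 0.54 ± 0.33 (SE) for Hoxa11, 0.56 ± 0.26 for Hoxa11os and 0.53 ± 0.23 for Hoxa13. The edgeR adjusted p-values became 0.782, 0.67 and 0.597. Leaving out the 6 libraries below every Inactive library in that score, also chosen after seeing the data, left 3 Activity Reduction libraries and log2 fold changes of 0.58 ± 0.34, 0.46 ± 0.24 and 0.48 ± 0.24. Those left out were Active replicates 3 and 5 and Activity Reduction replicates 1, 2, 4 and 6. All but Active replicate 5 were among the libraries with more Hoxa11os, so this choice by itself made the differences smaller. Against Active, the covariate gave 0.57 ± 0.31, 0.93 ± 0.24 and 0.53 ± 0.21. The part of fiber composition in the Hoxa differences was not tested.

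**Figure D4:**
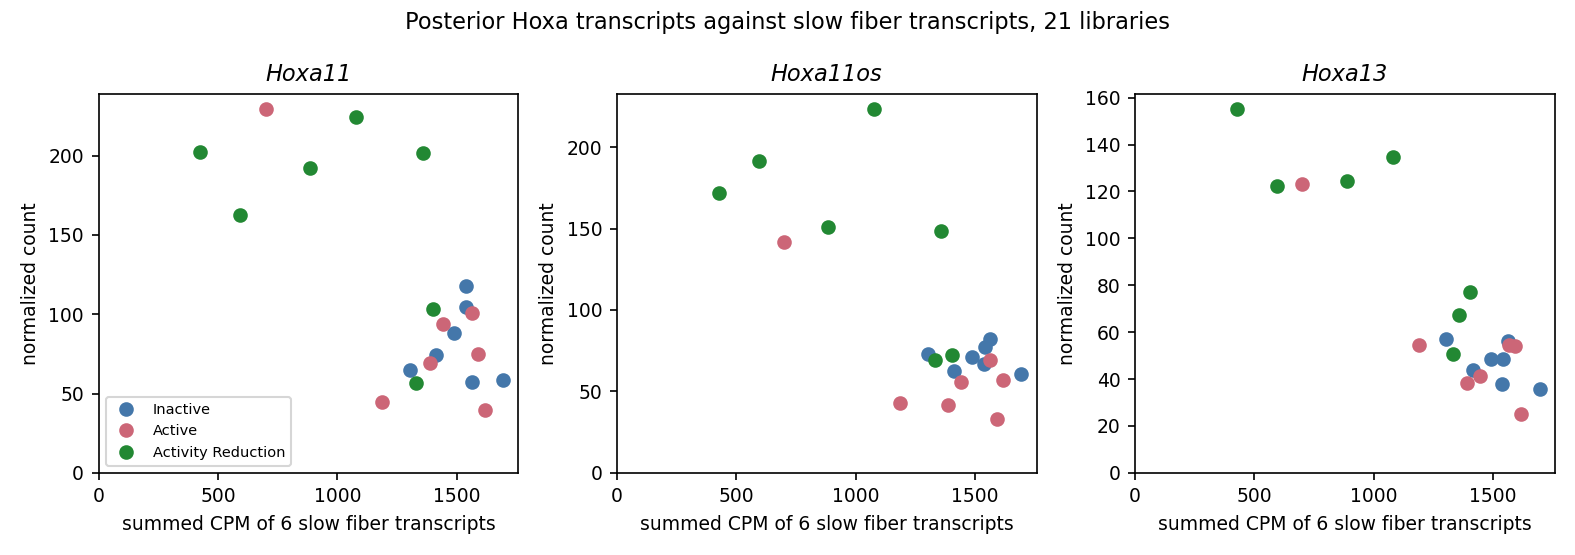
Normalized counts of Hoxa11, Hoxa11os and Hoxa13 against the summed CPM of 6 slow fiber transcripts, with 1 point per library (n = 21) colored by training group. The 4 libraries with the lowest sums, from 426 to 886 CPM, lie high in each panel, and Activity Reduction replicate 3 at 1358 CPM is high for Hoxa11 and Hoxa11os but at 67.5 for Hoxa13.

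Liver transcripts divided the libraries along another line. The 8 libraries with more of them comprised 5 Active, 2 Activity Reduction and 1 Inactive. They came from the 8 mice with the lowest mouse numbers in the labels, so the division followed mouse number and was uneven across the groups. Their median albumin (Alb) was 784 CPM against 118 CPM in the remaining 13. Among those 13, mean Hoxa11os was 137 in 5 Activity Reduction and 71.9 in 6 Inactive libraries, Hoxa11 was 158 and 82.0, and Hoxa13 was 97.0 and 47.3. Among the 8, mean Hoxa11os was 171 in 2 Activity Reduction libraries and 62.4 in 1 Inactive library, Hoxa11 was 178 and 74.0, and Hoxa13 was 123 and 43.7. With the division as a covariate, the Activity Reduction against Inactive log2 fold changes were 0.97, 1.03 and 1.08 for Hoxa11, Hoxa11os and Hoxa13.

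Genes outside the clusters that followed Hoxa11os most closely were ranked by Pearson's r of log2 CPM over the 21 libraries, a description that mainly contrasts the 6 and the 15 libraries. The first were Mss51, a muscle mitochondrial regulator (r = 0.881), the T-box factor Tbx1 (r = 0.875), the sulfhydryl oxidase Gfer (r = 0.838) and the homeobox factors En1 (r = 0.830) and Six2 (r = 0.810). Their log2 fold changes for Activity Reduction against Inactive were 1.44 for Mss51, 1.42 for Tbx1, 0.21 for Gfer, 0.38 for En1 and 0.45 for Six2, with edgeR adjusted p between 0.199 and 0.45. Among the most opposite were the collagen lysyl hydroxylase Plod2 (r = -0.888), the adenylate kinase Ak4 (r = -0.856), the transcription factor Sim1 (r = -0.832) and the calcium-binding protein Casq2 (r = -0.785). Their log2 fold changes for Activity Reduction against Inactive were -0.31, -0.62, -0.88 and -0.27 in that order, with edgeR adjusted p between 0.199 and 0.809. Hox members were left out of this ranking. Its r over 21 libraries cannot be set beside the r of Hoxa11 and Hoxa13 within the sets.

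The other 30 members spanned log2 fold changes from -0.79 to 0.13 for Activity Reduction against Inactive, from -0.67 to 0.24 for Activity Reduction against Active and from -0.38 (Hoxaas2) to 0.45 (Hoxb7) for Active against Inactive. In the last comparison Hoxa11, Hoxa11os and Hoxa13 lay within the range of the others. For Active against Inactive, the 33 members had a median log2 fold change of -0.05, with 12 positive and 21 negative, beside a median of 0.01 over all genes tested. For Activity Reduction against Inactive, the other 30 members had a median of -0.08 and for Activity Reduction against Active a median of -0.01. Of the 33, 15 were positive in the former comparison and 18 in the latter, and the medians over all genes were 0.01 and -0.00065.

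Among the anterior genes, Hoxa4 (chr6:52166651-52168733) gave 77.1, 115 and 141 normalized counts (lowest, median and highest) in Inactive mice, 75.2, 87.8 and 110 in Active mice and 69.1, 96.9 and 113 in Activity Reduction mice. The groups overlapped widely, and the Active against Inactive log2 fold change was -0.35 ± 0.14 (SE, edgeR adjusted p = 0.406). Hoxd4 (chr2:74542273-74559523), its paralog in the Hoxd cluster, gave 93.6, 127 and 147 in Inactive mice, 113, 142 and 165 in Active mice and 75.0, 110 and 142 in Activity Reduction mice. Its log2 fold change for Activity Reduction against Active was -0.35 ± 0.14 (SE, edgeR adjusted p = 0.293). Hoxd4 shares 38.9% of its exon bases with the annotated gene Gm28230 on the same strand, so its counts are uncertain.

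In the Hoxb cluster, Hoxb7 (chr11:96177449-96180988) had the highest level per kb. It gave 22.9, 35.6 and 42.7 normalized counts in Inactive mice, 31.9, 48.0 and 56.6 in Active mice and 23.1, 30.6 and 48.5 in Activity Reduction mice (lowest, median and highest). The Active group reached higher but overlapped both others, with a log2 fold change of 0.45 ± 0.20 against Inactive (SE, edgeR adjusted p = 0.416). Hoxb9 (chr11:96162150-96167421) gave 11.2, 22.6 and 29.5 in Inactive mice, 9.75, 20.7 and 30.9 in Active mice and 4.21, 9.16 and 32.8 in Activity Reduction mice. The Activity Reduction against Inactive log2 fold change was -0.79 ± 0.36 (SE, edgeR adjusted p = 0.637), although the highest single value was also in Activity Reduction mice. Without that library, Activity Reduction replicate 3, it was -1.25 (edgeR adjusted p = 0.174), and without the libraries low in slow fiber transcripts it was -0.38.

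In the Hoxc cluster, Hoxc9 (chr15:102884117-102893531) gave 240, 284 and 331 normalized counts in Inactive mice, 237, 268 and 292 in Active mice and 279.6, 311.7 and 345 in Activity Reduction mice (lowest, median and highest). The Active and Activity Reduction libraries overlapped only between 279.6 and 292, and the log2 fold change between them was 0.23 ± 0.07 (SE, edgeR adjusted p = 0.183). Hoxc10 (chr15:102875134-102880330) gave 3754, 3851 and 4053 in Inactive mice, 3233, 3464 and 4125 in Active mice and 3362, 3621 and 4266 in Activity Reduction mice. Its Inactive libraries were the tightest, at 3888 ± 126 (SD, n = 7), and the Active against Inactive log2 fold change was -0.12 ± 0.05 (SE, edgeR adjusted p = 0.426).

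**Figure D5:**
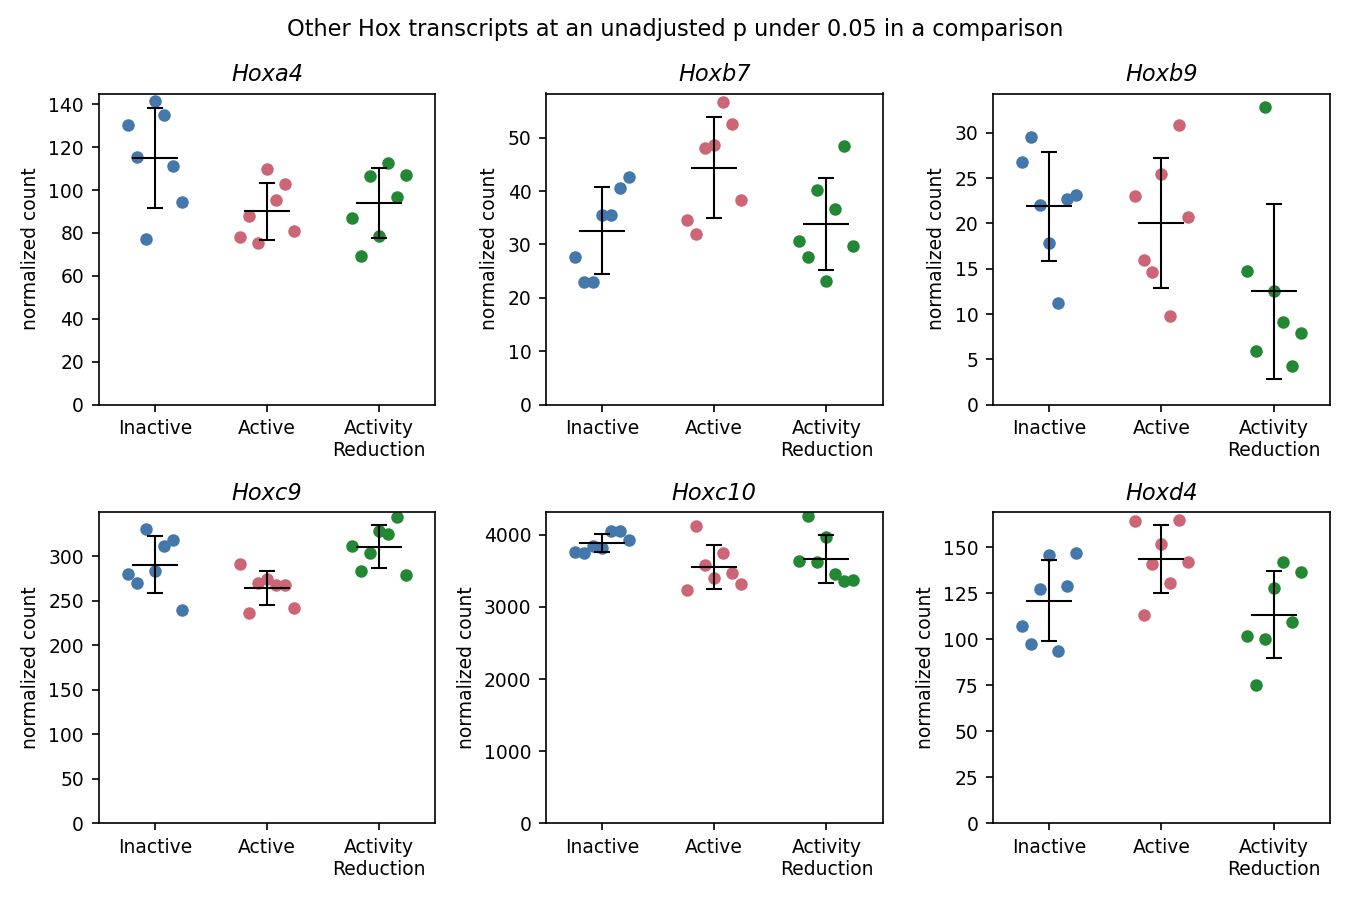
Normalized counts of Hoxa4, Hoxb7, Hoxb9, Hoxc9, Hoxc10 and Hoxd4 in each library by training group, with points for libraries and bars for the mean ± SD of 7. The groups overlap in every panel, including Hoxc9, where the Activity Reduction libraries start at 279.6 and the Active libraries end at 292.

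The highest members of the Hoxd and Hoxa clusters had small differences between groups. Hoxd8 (chr2:74534959-74538297) gave 2072, 2207 and 2399 normalized counts in Inactive mice, 1684, 2279 and 2351 in Active mice and 1756, 1926 and 2496 in Activity Reduction mice. Its log2 fold changes were -0.02 for Active against Inactive, -0.13 for Activity Reduction against Inactive and -0.11 for Activity Reduction against Active (edgeR adjusted p = 0.94, 0.738 and 0.559). Hoxa7 (chr6:52191471-52198834) gave 273, 322.7 and 389 in Inactive mice, 320, 366 and 408 in Active mice and 290.0, 327 and 411 in Activity Reduction mice. Its log2 fold changes were 0.14, 0.04 and -0.10 in the same order (edgeR adjusted p = 0.582, 0.974 and 0.644).

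HOX proteins bind DNA with cofactors of the TALE class, and Polycomb and Trithorax complexes keep Hox clusters silent or active. By edgeR, 0 members of the following lists were called in any comparison. Over all genes tested, 10.9% were at an unadjusted p under 0.05 for Active against Inactive, 7.73% for Activity Reduction against Inactive and 13.3% for Activity Reduction against Active. Of the 8 tested TALE cofactors, Meis3 was at an unadjusted p under 0.05 for Active against Inactive (log2 fold change 0.50 ± 0.23, SE) and for Activity Reduction against Active (-0.73 ± 0.23), and Pbx2 for Activity Reduction against Inactive (0.15 ± 0.07). Of 19 Polycomb genes, 4 were at that level for Active against Inactive, among them Pcgf2 (0.43) higher and Ring1 (-0.15) and Jarid2 (-0.15) lower. One Polycomb gene reached it in each other comparison, Phc2 (0.15) for Activity Reduction against Inactive and Ring1 (0.15) for Activity Reduction against Active. Of 11 Trithorax and MLL complex genes, Wdr5 (-0.14) reached it for Active against Inactive and the demethylase Kdm6b (0.19) for Activity Reduction against Active. The medians of these 3 lists lay between -0.05 and 0.10 in the 3 comparisons.

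Retinoic acid sets Hox expression in the embryo, and 10 of its 12 listed genes were tested. At that level stood 2 of the 10 for Active against Inactive (10.9% of all genes) and 1 in each other comparison (7.73% and 13.3%). Its receptor Rara was at 0.22 for Active against Inactive and -0.18 for Activity Reduction against Active, Rarb was at -0.14 for Active against Inactive and the synthetic enzyme Aldh1a1 at 0.20 for Activity Reduction against Inactive (log2 fold changes, unadjusted p under 0.05). Among 8 tested genes in or beside the clusters, Hotairm1, a noncoding RNA at the anterior end of Hoxa, was at 0.69 ± 0.27 (SE) for Activity Reduction against Inactive (edgeR adjusted p = 0.546). Hotairm1 shares exon bases with Hoxa2 on the opposite strand. Calcoco1, beside Hoxc, was at 0.10 for Activity Reduction against Active, and Hotair, the noncoding RNA between Hoxc11 and Hoxc12, was between -0.01 and 0.10 in the 3 comparisons.

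Markers of other cells in the muscle were read beside these values, and 0 genes of any of the 12 lists were called by edgeR. In Activity Reduction against Inactive, satellite cell genes had 2 of 6 higher at an unadjusted p under 0.05, Pax7 (0.32) and Cdh15 (0.14). This level was reached by 7.73% of all genes. Of 6 tenocyte genes Scx (0.53) was at that level, beside a list median of -0.34, and of 6 Schwann cell genes Sox10 (0.53), beside a list median of -0.03. None of the fibroblast, endothelial, adipocyte, fast fiber or liver genes, nor of the single tested genes of the cartilage and bone, skin and B cell lists, was at that level there. In Activity Reduction against Active, 5 of 6 fibroblast and 3 of 6 endothelial genes were lower at that level (13.3% of all genes in either direction), and for Active against Inactive 3 of 6 of each were higher (10.9%). The tenocyte list had a median of -0.83 for Activity Reduction against Active. Also at that level, Myod1 was lower and Myh4 and 4 of 24 liver genes higher for Active against Inactive, and Myod1, Cdh15, Scx and Actn3 were higher and Kera lower for Activity Reduction against Active. Summed cartilage and bone markers were between 0.921 and 3.19 CPM, with Acan, Col2a1, Bglap, Ibsp and Sost too low to test. The part of these cells in the Hox values was not tested.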

How the data were processed

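RNA from the medial gastrocnemius of 21 female mice was sequenced as poly(A)-selected libraries, and the raw count table deposited by the authors was used. Per the study's methods, fastp trimming, STAR alignment to GRCm39 and featureCounts preceded the counts that the authors deposited. The strand setting, annotation and versions are not given in the sources used here. The table named as normalized held the same values as the raw counts, in 857913 of 857913 cells, and was not used.

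Members and gene lists were chosen with earlier results of these data known. Members passing the filter were named, except that Hoxb4, Hoxc5 and Hoxc6 are shown in the figures only. Values by group were given for those at an unadjusted p under 0.05 and for the highest level per kb of each cluster. They were also given for Hoxa10, Hoxa11 and Hoxa11os. Counts were tested with edgeR 4.0.16 (TMM, filterByExpr, quasi-likelihood, Benjamini-Hochberg), in R 4.3.3, with all 3 groups in 1 fit; DESeq2 1.42.0 was an alternative. Normalized counts were divided by DESeq2 size factors, and CPM used library totals. Exon lengths, overlaps and sequences came from GENCODE M39 on GRCm39. Correlations had been planned over all libraries and were computed within sets, split at the gap in Hoxa11os, because the libraries were separated. Replicate numbers did not pair mice across groups (correlations of deviations from -0.246 to 0.407). Libraries were from separate mice, and no pair within a group agreed within sampling noise. Permutations numbered 100000, or were exact. The values of 1 member and of some other genes are not reported here.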

Additional observations from a re-analysis of the deposited data

Results flagged for a closer look

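A sample far from the rest of its group, by Dixon's test on 7 normalized counts, occurred in 9 of 99 groups examined (33 transcripts in 3 groups), where chance gives about 1 in 20. The 99 groups come from the same 21 libraries and are not independent, so an excess cannot be read from this count. Active replicate 3 accounted for 5 of the 9. It was highest of its group for Hoxa11 at 230 (others 39.4 to 101), for Hoxa11os at 142 (others 33.3 to 69.2) and for Hoxa13 at 123 (others 24.9 to 54.6). It was lowest of its group for Hoxd8 at 1684 (others 2086 to 2351) and for Hoxb8 at 4.18 (others 13.3 to 18.7). The same library had a slow fiber sum of 701 CPM, the lowest of the Active group.

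The other 4 each concerned 1 transcript. Hoxa2 was highest in Inactive replicate 7 at 62.3 (others 30.9 to 43.4). Hoxaas2 was highest in Active replicate 7 at 34.2 (others 5.32 to 15.0), Hoxb2 in Active replicate 6 at 24.7 (others 6.22 to 12.6) and Hoxb9 in Activity Reduction replicate 3 at 32.8 (others 4.21 to 14.8).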

How the results depend on the processing

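The count of called members by edgeR stayed at 0 in the 3 comparisons under the other scaling, filters, fits on the 2 groups compared, liver division, robust and replicate block alternatives, and under the slow fiber alternatives chosen after seeing the data. DESeq2 on the 2 groups compared called 3 members for Activity Reduction against Inactive and 1 for Activity Reduction against Active, and DESeq2 on the 3 groups called 1 for the latter; the cause was not tested. Leaving out 1 library gave 0 to 1 called member for Activity Reduction against Active and 0 in the other comparisons. The 1 was Hoxa11os without Active replicate 3 (log2 fold change 1.55, edgeR adjusted p = 0.0167), in a fit that called 8 of 16129 genes. Replicate numbers were shared across groups without pairing mice, and the fit with them as a replicate block gave 1.00 for Hoxa11os and 1.15 for Hoxa13 in Activity Reduction against Inactive (edgeR adjusted p = 0.349 and 0.22) and 0 calls.

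Members at an unadjusted p under 0.05 numbered 1 to 5 for Active against Inactive, 3 to 6 for Activity Reduction against Inactive and 5 to 8 for Activity Reduction against Active when 1 library was left out, of 33 tested. In the same fits 8.31% to 14.5%, 5.33% to 9.13% and 10.9% to 14.4% of all genes were at that level. The low and high counts of the first came without Inactive replicate 5 or Active replicate 4 (1 each) and without Inactive replicate 7 (5), and the 8 came without Activity Reduction replicate 3. Without the libraries low in slow fiber transcripts these counts were 1, 1 and 2, from fewer samples, beside 7.99%, 6.11% and 7.89% of all genes, and with the slow fiber covariate the count for Activity Reduction against Active was 3, beside 14.1%.

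For Active against Inactive, Hoxa11 changed sign with the slow fiber covariate (-0.024), without the libraries low in slow fiber transcripts (-0.092) and without Active replicate 3 (-0.19), with a range of -0.19 to 0.35 when 1 library was left out. Hoxa13 changed sign with the liver division (-0.047), without the libraries low in slow fiber transcripts (-0.13) and without Active replicate 3 (-0.062), with a range of -0.062 to 0.39. Hoxa11os was at -0.37 with the slow fiber covariate and -0.45 without the libraries low in slow fiber transcripts. The Hoxa11os to Hoxa11 ratio difference for Activity Reduction against Inactive lay between -0.10 and 0.12 when 1 library was left out, for Activity Reduction against Active between 0.23 and 0.51 and for Active against Inactive between -0.50 and -0.22, none past the threshold. The ratio kept its direction in the 3 comparisons with 5 in place of 0.5 added, and 0 correlations with Hoxa11os passed within the 15 libraries on the scale of counts divided by DESeq2 size factors. Among the tested members, Hoxb2, Hoxb5, Hoxb8, Hoxb9, Hoxaas2 and Hoxaas3 averaged under 20 normalized counts, with standard errors of 0.31 to 0.46 for Activity Reduction against Inactive, and Hoxa11 had one of 0.33 at a mean of 112.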
